A study of Mus musculus with 12 samples.

Results

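The genes described here encode the nuclear subunits of the mitochondrial respiratory chain beyond complex I. They comprise the 4 subunits of succinate dehydrogenase (complex II, Sdha to Sdhd), cytochrome c1 (Cyc1) and every Uqcr gene of the cytochrome bc1 complex (complex III), somatic cytochrome c (Cycs), every Cox4 to Cox8 gene of cytochrome c oxidase (complex IV) and every Atp5 gene of ATP synthase (complex V). The rule that chose them used symbols and no values, though it was set with earlier results of these data known. Symbols holding "-ps", the mark of pseudogenes, were left out (6 rows). Of the 27412 genes in the deposited table, 49 met the rule: 4 of complex II, 9 of complex III, 18 of complex IV, 17 of complex V and Cycs. Cox8c had no row under that symbol and was not analysed here.

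RNA was sequenced from a thin slice of outer kidney cortex of untreated male mice of the C57BL/6 strain. One group of 3 animals was wild type (WT 1, 2 and 3). The other group of 3 (HIF2aM3 17-51, 17-53 and 17-56) carried the γ-HIF2αM3 transgene, in which the γ-glutamyl transferase (GGT) promoter, active in proximal tubule cells, drives HIF2αM3, known as a mutated, constitutively active form of the hypoxia-response factor HIF2α. Each of the 6 animals gave a library from each of its 2 kidneys, 12 libraries in all, and the labels give no age. All 3 HIF2aM3 animals share the number 17 in their names, so that line, insertion site and transgene action cannot be told apart.

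The respiratory chain passes electrons from NADH and succinate to oxygen and stores the energy as a proton gradient that ATP synthase uses. Complex II also belongs to the citric acid cycle and pumps no protons, complex III hands electrons to cytochrome c, and complex IV reduces oxygen to water. Proximal tubule cells, the bulk of the outer cortex, are rich in mitochondria and depend on this chain for salt and solute transport. Several complex IV subunits and the ATP synthase c subunit are encoded by more than 1 gene, with isoforms known from heart, skeletal muscle, lung or testis. Hypoxia-inducible factors are known to exchange Cox4 isoforms in some cells.

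The transcripts of these genes were slightly less abundant on average in the HIF2aM3 cortex, in all 4 complexes, and no single gene passed the test. Of the 49 genes, 47 had enough reads to be tested with edgeR's quasi-likelihood test (3 animals against 3, Benjamini-Hochberg adjusted threshold 0.05), and 0 were called in either direction, against 3.75% of all 19564 genes tested in either direction and 1.82% called lower. The log2 fold change (HIF2aM3 over WT) was below 0 for 46 of the 47, against 49.1% of all tested genes, the exception being Atp5s at 0.03. Its median over the 47 was -0.14, a difference of -9.12%, beside 0.0049 over all tested genes. An unadjusted p under 0.05 was reached by 22 of the 47, against 24.9% of all tested genes. DESeq2 called 10 of the 47, all lower, against 10.8% of its genes, and limma on the authors' RPKM called 0 with a pseudocount of 0.1 or 1, against 0.716% and 0.583%. With WT 2 left out, edgeR called 5 of the 47 lower (Uqcrq, Cox6a2, Cox7a2, Atp5j2 and Cycs), against 7.87% of all tested genes. With the 12 libraries taken as replicates, which treats the 2 kidneys of an animal as independent, it called 22 of 46 lower, against 26.6% of all genes. It called 2 without a count filter, against 3.66%, and 1 each with kidney 1 only (3.73%), with library size alone (3.19%) and with GC content and length trends removed (2.37%). In 26 of the 47 every HIF2aM3 animal was below every WT animal, against 16.5% of all tested genes, and in 0 was every HIF2aM3 animal above. Because the 47 genes were measured in the same 6 animals, these counts are not 47 independent observations. In whole cortex, fewer cells of a type and less RNA per cell cannot be told apart.

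The standard error (SE) of a log2 fold change had a median of 0.07 over the 47 genes and ran from 0.05 to 0.45, and the smallest absolute log2 fold change among the 733 called genes was 0.21, a size that 13 of the 47 reached without being called. Adjusted p-values under 0.1 were found for 9 genes, Atp5j2, Atp5d, Cox7a2, Uqcr11, Uqcrq, Cox6a1, Sdhc, Cox6a2 and Cycs, which span all 4 complexes. The share of all tested genes under this looser limit was not counted, so the 9 are a description only. At the other end, 15 of the 47 genes lay within 0.1 of no difference. Those were Atp5j, Cox7a2l, Sdha, Atp5b, Cox8a, Atp5c1, Cox7b, Atp5g2, Cox5b, Atp5a1, Atp5s, Uqcrc2, Atp5g3, Sdhb and Cox4i2. They mix core subunits, small subunits and isoforms, and the core or haem subunits Cyc1, Uqcrc1 and Uqcrfs1 were lower, at -0.20, -0.16 and -0.19.

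**Figure D1:**
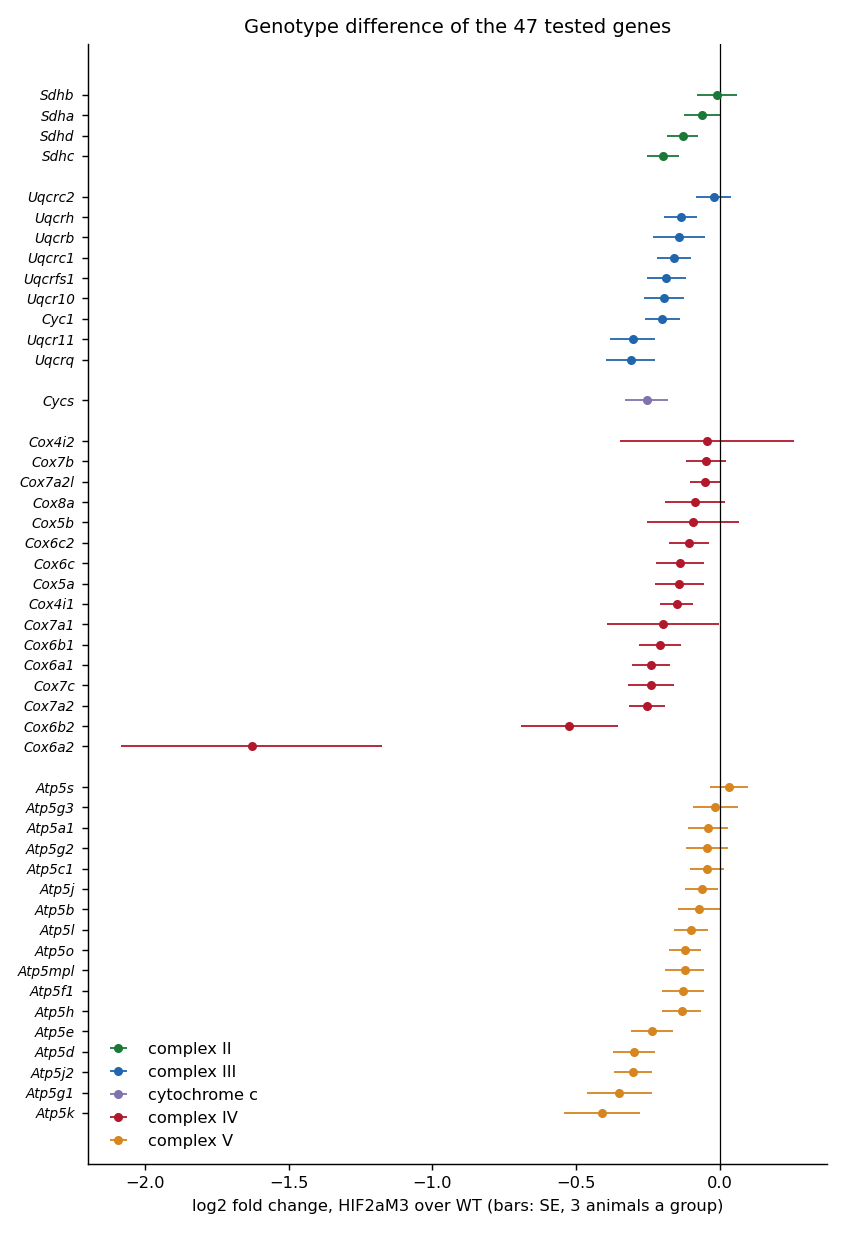
Log2 fold change of HIF2aM3 over WT on the horizontal axis for the 47 tested genes, grouped by complex and sorted within it. Points are edgeR estimates and bars their SE (3 animals a group); 46 of 47 points lie left of 0, most between 0 and -0.41, and Cox6a2 at -1.63 has the widest bar.

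By complex, the median log2 fold change was -0.09 over the 4 genes of complex II, -0.19 over the 9 of complex III, -0.15 over the 16 tested of complex IV and -0.12 over the 17 of complex V, and Cycs stood at -0.25. Without WT 3 the medians of complexes IV and V were -0.086 and -0.054, and with trends over GC content and transcript length removed those of complexes III and V were -0.11 and -0.047, with 38 of the 47 genes below 0. Complex II stood at -0.063 with kidney 1 only, and complex V at -0.080 and -0.076 with limma on RPKM plus 0.1 and plus 1. To see the spread over animals, each gene's level was divided by its WT mean and the median log2 ratio was taken within each animal. Over all 47 genes that median was -0.06, -0.02 and 0.08 in WT 1, 2 and 3 and -0.10, -0.14 and -0.21 in 17-51, 17-53 and 17-56. The highest HIF2aM3 animal was thus below the lowest WT animal, by less than the distance between WT 1 and WT 3. The same held in each complex: the lowest WT animal stood at -0.03 in complex II, -0.05 in complex III, -0.07 in complex IV and -0.06 in complex V. The highest HIF2aM3 animal, 17-51 each time, stood at -0.07, -0.14, -0.10 and -0.09. WT 3 was the highest animal of the 6 and 17-56 the lowest in all 4 complexes. Complex III was below complex II in each HIF2aM3 animal, by medians of -0.14 and -0.07 in 17-51, -0.17 and -0.09 in 17-53 and -0.22 and -0.12 in 17-56. The order was the same in WT 1 (-0.05 and -0.03) and WT 2 (-0.04 and -0.0037) and the reverse in WT 3 (0.08 and 0.04). The complexes hold unequal numbers of genes, and the difference between them was not tested.

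**Figure D2:**
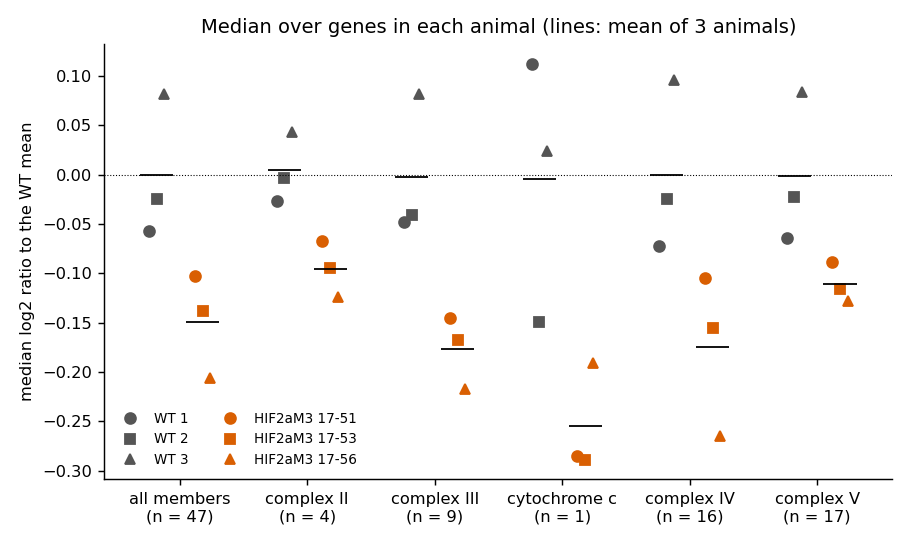
Median log2 ratio to the WT mean (vertical axis) over the genes of each complex, 1 point per animal (grey WT, orange HIF2aM3), lines the mean of 3 animals. In each complex the 3 HIF2aM3 points lie below the 3 WT points; WT 3 is highest and 17-56 lowest in complexes II to V.

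As a share of all reads, the 49 genes took 1.15%, 1.19% and 1.23% in WT 1, 2 and 3 and 1.15%, 1.12% and 1.10% in 17-51, 17-53 and 17-56, means of 1.19% ± 0.0431 and 1.12% ± 0.0247 (SD, n = 3 animals). On that scale, which is weighted by the strongest genes, 17-51 lay just above WT 1 and the groups overlapped. Complex V supplied more than the other complexes together, 0.648% ± 0.0252 of reads in WT and 0.624% ± 0.00861 in HIF2aM3 animals. Complex II held 0.173% ± 0.00404 and 0.166% ± 0.00415, complex III 0.184% ± 0.00730 and 0.168% ± 0.00378, and complex IV 0.175% ± 0.00798 and 0.158% ± 0.00892 of reads.

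Promoters of 5 genes, 1 from each complex and Cycs, are shown with their letters marked. Each was chosen among the genes with NRF1 letters as the one with the smallest p of its complex. In all 5 every HIF2aM3 animal was below every WT animal, against 16.5% of all tested genes. Choosing by p favours such a separation, so it is not a result. Sequences are RefSeq's, on the plus or minus strand as transcribed, from 200 bases before to 30 after the annotated start in build GRCm38.p6. The capitals mark matches to the letters of 3 factors known to bind promoters of nuclear respiratory genes: NRF1 (GCGCNTGCG), ETS factors such as GABP (CCGGAAGT) and YY1 (AAGATGGC), each on either strand.
Sdhd (chr9:50603820-50604049, minus strand): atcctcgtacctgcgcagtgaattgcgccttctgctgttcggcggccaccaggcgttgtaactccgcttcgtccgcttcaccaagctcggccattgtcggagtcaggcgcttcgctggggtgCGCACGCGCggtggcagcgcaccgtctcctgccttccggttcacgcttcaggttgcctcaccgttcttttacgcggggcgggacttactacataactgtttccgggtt
Uqcr11 (chr10:80406792-80407021, minus strand): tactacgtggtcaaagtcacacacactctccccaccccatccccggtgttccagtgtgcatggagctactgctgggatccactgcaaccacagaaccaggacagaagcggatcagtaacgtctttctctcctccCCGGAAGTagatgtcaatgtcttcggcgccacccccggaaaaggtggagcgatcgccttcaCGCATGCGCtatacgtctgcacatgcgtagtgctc
Cox6a1 (chr5:115348929-115349158, minus strand): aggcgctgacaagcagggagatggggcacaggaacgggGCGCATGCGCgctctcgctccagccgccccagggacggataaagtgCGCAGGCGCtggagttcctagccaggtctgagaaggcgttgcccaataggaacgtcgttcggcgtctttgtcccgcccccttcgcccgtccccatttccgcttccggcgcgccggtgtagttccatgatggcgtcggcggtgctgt
Atp5d (chr10:80142115-80142344, plus strand): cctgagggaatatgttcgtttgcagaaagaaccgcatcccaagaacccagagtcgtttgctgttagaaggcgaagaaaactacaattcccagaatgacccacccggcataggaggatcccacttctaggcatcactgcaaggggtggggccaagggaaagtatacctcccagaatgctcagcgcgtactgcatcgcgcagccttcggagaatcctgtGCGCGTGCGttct
Cycs (chr6:50566540-50566769, minus strand): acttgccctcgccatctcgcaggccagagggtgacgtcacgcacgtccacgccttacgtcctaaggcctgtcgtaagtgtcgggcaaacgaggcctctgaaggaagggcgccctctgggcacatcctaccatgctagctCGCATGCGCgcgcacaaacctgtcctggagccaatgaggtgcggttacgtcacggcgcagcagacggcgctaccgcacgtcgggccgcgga
All 5 hold NRF1 letters because that was the condition for choosing them. These begin at base -78 from the start in Sdhd, -5 in Uqcr11, -61 in Cycs and 18 in Atp5d. Cox6a1 has overlapping matches at -162 and -161 and another at -116, and Uqcr11 also has ETS letters at -66. The 5 genes were picked after the letters and the values were seen. Neither the letters they share nor their lower levels are therefore a result.

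RefSeq's promoter table matched 37 of the 49 genes, with 40 promoters of 300 bases (250 before to 50 after the start). Sdhc, Cyc1, Uqcrb, Uqcrc2, Uqcrq, Cox4i1, Cox4i2, Cox6a2, Cox6c, Cox6c2, Atp5a1 and Atp5mpl were unmatched. NRF1 letters stood in 15 of the 40 (37.5%, exact 95% binomial interval 22.7% to 54.2%), against 6.31% of 32851 promoters of the table. ETS letters stood in 10% against 3.89%, YY1 letters in 7.5% against 2.75%, and hypoxia response letters (ACGTG or GCGTG, some of which overlap NRF1 letters) in 75.0% against 43.8%. The median log2 fold change was -0.13 over the 15 tested genes with NRF1 letters and -0.14 over the 20 without of those matched. The letters describe sequence and say nothing of binding in these animals.

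None of the 4 subunits of complex II was called. Every HIF2aM3 animal was below every WT animal for the membrane anchors, and the catalytic subunits overlapped between genotypes. A difference between anchors and catalytic subunits was not tested. Sdhc, an anchor that binds haem and ubiquinone, was at 288, 285 and 292 CPM (read counts relative to library size, TMM-scaled) in WT 1, 2 and 3 and 262, 249 and 243 CPM in 17-51, 17-53 and 17-56. The WT animals lay close together and above every HIF2aM3 animal, with a log2 fold change of -0.20 ± 0.06 (SE, edgeR adjusted p = 0.0878). Sdhd, the other anchor, was at 279.5, 291 and 297 CPM in WT and 265, 268 and 261 CPM in HIF2aM3 animals, again with no overlap (-0.13 ± 0.05, edgeR adjusted p = 0.192). Sdha, the flavoprotein that oxidises succinate, was at 913, 884 and 946 CPM in WT and 909, 868 and 852 CPM in HIF2aM3 animals. Its groups overlapped because 17-51 lay above WT 2 (-0.06 ± 0.06, edgeR adjusted p = 0.597). Sdhb, the iron-sulphur subunit, was at 232, 258 and 271 CPM in WT and 257, 252 and 247 CPM in HIF2aM3 animals. WT 1 was the lowest animal of the 6 for Sdhb, and its difference of -0.01 ± 0.07 (edgeR adjusted p = 0.952) was the smallest in complex II. None of the 4 genes shared more than 0.0915% of its 50-base words with another gene.

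In complex III, 7 of the 9 genes had every HIF2aM3 animal below every WT animal, against 16.5% of all tested genes. The 9 genes share the same 6 animals. The lowest was Uqcrq, a small subunit next to cytochrome b, at 126, 122 and 147 CPM in WT and 113, 105 and 101 CPM in HIF2aM3 animals. WT 3 was well above the other animals and the groups did not overlap (-0.31 ± 0.08, edgeR adjusted p = 0.0805). Uqcr11, another small subunit of the complex, was at 23.1, 24.2 and 24.8 CPM in WT and 21.2, 19.8 and 17.5 CPM in HIF2aM3 animals, without overlap (-0.30 ± 0.08, edgeR adjusted p = 0.0739). Cyc1, the haem subunit that passes electrons to cytochrome c, was at 302, 305 and 329 CPM in WT and 279, 273 and 263 CPM in HIF2aM3 animals. It too had every HIF2aM3 animal below every WT animal (-0.20 ± 0.06, edgeR adjusted p = 0.101). Uqcrc2, a core subunit, was the highest of the complex in fold change at -0.02 ± 0.06 (edgeR adjusted p = 0.850). Its 368, 369 and 399 CPM in WT and 378, 371 and 371 CPM in HIF2aM3 animals overlapped. Uqcrc1, the other core subunit, differed by -0.16 ± 0.06, and the Rieske iron-sulphur protein Uqcrfs1 by -0.19 ± 0.07. Of the remaining small subunits, Uqcr10 stood at -0.19, Uqcrh at -0.14 and Uqcrb at -0.14, the last with overlapping groups.

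Cycs, the mobile carrier between complexes III and IV that also triggers apoptosis in the cytosol, was at 106, 88.2 and 99.5 CPM in WT and 80.2, 80.1 and 85.7 CPM in HIF2aM3 animals. WT 2 was closer to the HIF2aM3 animals than to WT 1, and the groups did not overlap (-0.25 ± 0.07, edgeR adjusted p = 0.0948). Its row shared 26.1% of its words with other genes, above all with the near-identical copy Gm10053, which held 70.3 ± 5.67 CPM in WT and 61.0 ± 2.26 CPM in HIF2aM3 animals. With the 2 rows summed the difference was -0.23 ± 0.07 (edgeR adjusted p = 0.113).

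Complex IV had 16 tested genes, all with a negative log2 fold change, against 49.1% of all tested genes. In 8 of them every HIF2aM3 animal was below every WT animal, against 16.5% of all tested genes. Of the isoforms known from most tissues, those of subunits 7a, 6a, 6b and 4 were lower in every HIF2aM3 animal, and those of 7b and 8 overlapped. Cox7a2, the widely expressed isoform of subunit 7a, was at 116, 115 and 129 CPM in WT and 104, 102 and 97.2 CPM in HIF2aM3 animals (-0.25 ± 0.06, edgeR adjusted p = 0.0677). Cox6a1, the widely expressed isoform of subunit 6a, was at 308, 312 and 336 CPM in WT and 284, 270.1 and 256 CPM in HIF2aM3 animals (-0.24 ± 0.07, edgeR adjusted p = 0.0850). Cox6b1, on the side of the membrane where cytochrome c docks, was at 186, 197 and 213 CPM in WT and 184, 168 and 163 CPM in HIF2aM3 animals (-0.21 ± 0.07, edgeR adjusted p = 0.137). For these 3 genes the groups did not overlap, although for Cox6b1 the gap between WT 1 and 17-51 was narrow.

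Cox4i1, the main isoform of subunit 4, through which ATP inhibits the enzyme, was at 433, 432 and 448 CPM in WT and 405, 399 and 379.6 CPM in HIF2aM3 animals (-0.15 ± 0.06, edgeR adjusted p = 0.165). Its groups did not overlap. Cox4i2, the lung isoform known as a hypoxia-inducible partner of Cox4i1, was at 0.297, 0.315 and 0.310 CPM in WT and 0.338, 0.361 and 0.193 CPM in HIF2aM3 animals, from 15, 21, 20, 11, 31 and 11 reads. The groups overlapped, and at this depth the difference had an SE of 0.30 (-0.05, edgeR adjusted p = 0.966). Per kilobase of the longest coding transcript, Cox4i1 stood 1366 ± 44.3 times above Cox4i2 in WT and 1363 ± 452 times above it in HIF2aM3 animals (SD, n = 3). On the authors' RPKM, which rests on other gene lengths, the WT ratio was 2730. An exchange of these isoforms was therefore not detectable at this depth.

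Cox6a2, the heart and skeletal muscle isoform of subunit 6a, had the lowest fold change of all 47 genes and few reads. It was at 1.82, 0.630 and 1.54 CPM in WT (92, 42 and 99 reads) and 0.615, 0.291 and 0.439 CPM in HIF2aM3 animals (20, 25 and 25 reads). WT 2 nearly touched 17-51, and the log2 fold change of -1.63 ± 0.45 did not pass (edgeR adjusted p = 0.0882). Its exons overlap Itgad on the opposite strand, and the sources used here do not say whether reads were counted by strand. Of 6 muscle markers fixed beside it, 2 could be tested. Acta1 was at 2.63, 3.03 and 2.65 CPM in WT and 2.46, 3.09 and 2.50 CPM in HIF2aM3 animals (-0.04 ± 0.14, edgeR adjusted p = 0.889), and Ckm, Myh4, Myl1 and Tnnt3 had too few reads to test, with at most 0.105 CPM in any animal. Myoglobin (Mb), the oxygen store of muscle, rose (edgeR adjusted p = 0.0260), with 0, 0 and 2 reads in WT and 36, 94 and 19 reads in HIF2aM3 animals, at most 1.11 CPM.

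The testis isoform Cox6b2 was at 4.45, 5.55 and 3.81 CPM in WT and 3.75, 2.91 and 3.04 CPM in HIF2aM3 animals, without overlap though WT 3 and 17-51 nearly met (-0.52 ± 0.17, edgeR adjusted p = 0.115). Cox7a1, the muscle isoform of subunit 7a, was at 3.88, 4.0 and 6.37 CPM in WT and 4.15, 4.29 and 4.01 CPM in HIF2aM3 animals. WT 3 alone was high, and the groups overlapped (-0.20 ± 0.20, edgeR adjusted p = 0.570). Without WT 3 the difference was 0.069. Cox7a2l, a relative of Cox7a2, was at 23.0, 23.5 and 23.0 CPM in WT and 22.9, 22.3 and 22.0 CPM in HIF2aM3 animals. Its groups were separate by less than 0.1 CPM, with a difference of -0.05 ± 0.05 (edgeR adjusted p = 0.565). Per kilobase, Cox7a2 stood 8.89 ± 0.653 times above Cox7a2l in WT and 7.73 ± 0.136 times in HIF2aM3 animals, the lowest WT animal at 8.37 and the highest HIF2aM3 animal at 7.82. The ratio of Cox7a2 to Cox7a1 was 19.4 ± 3.88 and 17.9 ± 0.496 and overlapped between genotypes. On the authors' RPKM the WT ratio of Cox7a2 was 15.2 to Cox7a2l and 12.1 to Cox7a1.

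Cox7b was at 60.0, 65.2 and 69.0 CPM in WT and 65.7, 63.3 and 58.7 CPM in HIF2aM3 animals, overlapping widely (-0.05 ± 0.07, edgeR adjusted p = 0.696). Its testis copy Cox7b2 had 1 read in WT 3, 1 read in 17-53 and 0 in the other animals and was not tested. Cox8a, the liver-type isoform of subunit 8, was at 212, 222 and 244 CPM in WT and 237, 219 and 183 CPM in HIF2aM3 animals. 17-56 alone was low and 17-51 lay above WT 2, so the groups overlapped (-0.09 ± 0.10, edgeR adjusted p = 0.641). Cox8b, the heart and muscle isoform, had 3, 1 and 1 reads in WT and 0, 6 and 0 in HIF2aM3 animals and was not tested. Cox5a (-0.14), Cox6c (-0.14), Cox6c2 (-0.11) and Cox5b (-0.09) had overlapping groups. Cox7c (-0.24 ± 0.08) did not overlap between genotypes.

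Complex V had 17 tested genes. In 8 of them every HIF2aM3 animal was below every WT animal, against 16.5% of all tested genes. Atp5k, Atp5g1, Atp5j2 and Atp5d stood lowest, and the alpha, beta and gamma subunits lay near 0, a difference between groups of subunits that was not tested. Atp5b, the catalytic beta subunit and the most abundant of the 49 transcripts, was at 2748, 2642 and 2983 CPM in WT and 2666, 2603 and 2702 CPM in HIF2aM3 animals, and WT 2 lay below 17-51 and 17-56 (-0.07 ± 0.08, edgeR adjusted p = 0.600). The alpha subunit Atp5a1 stood at -0.04 ± 0.07 and the gamma subunit Atp5c1 at -0.05 ± 0.06, both with overlapping groups. Atp5d, the delta subunit of the central stalk, was at 309, 316 and 339 CPM in WT and 277, 265 and 240.2 CPM in HIF2aM3 animals. All HIF2aM3 animals were lower (-0.30 ± 0.07, edgeR adjusted p = 0.0649). Atp5e, the epsilon subunit beside it, differed by -0.24 ± 0.07, also without overlap (edgeR adjusted p = 0.105).

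Of the membrane part, Atp5j2, the f subunit, came closest to the threshold of all 47 genes. It was at 65.5, 65.0 and 74.9 CPM in WT and 57.0, 55.3 and 54.2 CPM in HIF2aM3 animals, with a clear gap between WT 2 and 17-51 (-0.30 ± 0.07, edgeR adjusted p = 0.0521). Atp5k, the e subunit, which takes part in dimer formation, had the lowest fold change of complex V as deposited. It was at 10.5, 11.8 and 13.7 CPM in WT and 9.60, 9.90 and 7.61 CPM in HIF2aM3 animals, without overlap but with WT 1 close to 17-53 (-0.41 ± 0.13, edgeR adjusted p = 0.118). Atp5k-ps2, a pseudogene row matched to it by name, held 19.0 ± 2.46 CPM in WT and 16.9 ± 2.26 CPM in HIF2aM3 animals. Atp5k itself shared only 0.603% of its 50-base words with other genes. With both rows summed the difference was -0.26 ± 0.13 (edgeR adjusted p = 0.247), which is nearer 0 than that of Atp5g1. The highest was Atp5s, coupling factor B and not a subunit of the enzyme itself, at 13.4, 13.5 and 13.1 CPM in WT and 14.5, 13.4 and 13.1 CPM in HIF2aM3 animals. Only 17-51 was above the WT animals (0.03 ± 0.07, edgeR adjusted p = 0.803).

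The c subunit, whose ring turns with the proton flow, is encoded by 3 genes with different leader peptides. Atp5g3 was at 487, 529 and 573 CPM in WT and 546, 528 and 498 CPM in HIF2aM3 animals, overlapping fully (-0.02 ± 0.08, edgeR adjusted p = 0.922). Atp5g2 was at 12.7, 14.2 and 13.8 CPM in WT and 13.8, 13.2 and 12.4 CPM in HIF2aM3 animals, also overlapping (-0.04 ± 0.07, edgeR adjusted p = 0.750). Atp5g1 was at 11.5, 12.1 and 11.9 CPM in WT and 8.68, 10.9 and 8.17 CPM in HIF2aM3 animals, all below WT (-0.35 ± 0.11, edgeR adjusted p = 0.120). Per kilobase, Atp5g3 stood 291 ± 20.5 times above Atp5g1 in WT and 374 ± 51.7 times in HIF2aM3 animals. These 2 ranges nearly touched, at 314 in WT 3 and 315 in 17-53. The size of the ratio depends on the lengths used, here 723 bases for Atp5g3 and 4715 for Atp5g1. On the authors' RPKM it was 69.1 in WT. The remaining 6 genes lay between -0.13 and -0.06, from the peripheral stalk genes Atp5h (-0.13), Atp5f1 (-0.13), Atp5o (-0.12) and Atp5j (-0.06) to Atp5mpl (-0.12) and the g subunit Atp5l (-0.10).

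**Figure D3:**
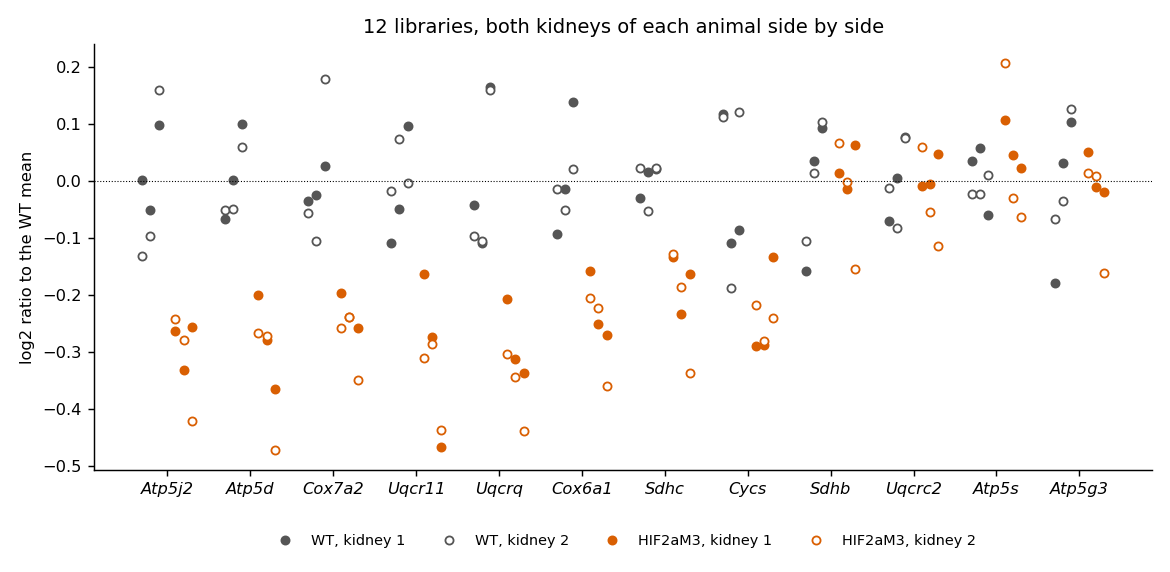
Log2 ratio to the WT mean (vertical axis) in each of the 12 libraries for the 8 genes of adjusted p under 0.1 other than Cox6a2, then 4 genes near 0. Filled points are kidney 1, open points kidney 2; grey WT, orange HIF2aM3. In the 8 genes on the left nearly all orange points lie below the grey ones, and in the 4 on the right they mix. Both sets were picked by their values, so this contrast follows from the choice.

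Levels between genes were compared as CPM per kilobase of the longest coding transcript in GENCODE M21, since the gene lengths behind the authors' RPKM (reads scaled to gene length and library size) differ from those transcripts. The length implied by the deposited RPKM was 2.04 times that of the longest coding transcript in the median over the 47 genes and over 3 times in 18 of them. In WT, Atp5b was highest at 1457 ± 91.1 CPM per kilobase (SD, n = 3). Atp5g3 at 733 ± 59.6 and Atp5a1 at 715 ± 34.4 followed and did not differ beyond their spread. Cox4i1 at 572 ± 11.6 and Cox6a1 at 558 ± 26.9 came next, likewise within their spread, and Cox8a at 411 ± 29.6 below them. On the authors' RPKM the order was another: Cox4i1 led at 578 ± 12, above Cox8a at 371 ± 25.3, Cox6b1 at 352 ± 22.6 and Atp5b at 317 ± 13.9. The lowest tested genes were Cox4i2 at 0.419 ± 0.0127, Cox5b at 1.70 ± 0.149 and Cox6a2 at 1.95 ± 0.915 CPM per kilobase. The level of Cox5b is uncertain, because its near-identical copy Gm11273 held 41.2 CPM in WT. Across the 47 genes the log2 fold change had a Spearman rho of 0.239 with transcript length, -0.125 with GC content and 0.174 with the WT level per kilobase. Over all tested genes with a length (18341) these were 0.178, -0.277 and -0.243. Genes are not independent replicates, and these values describe the same libraries.

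**Figure D4:**
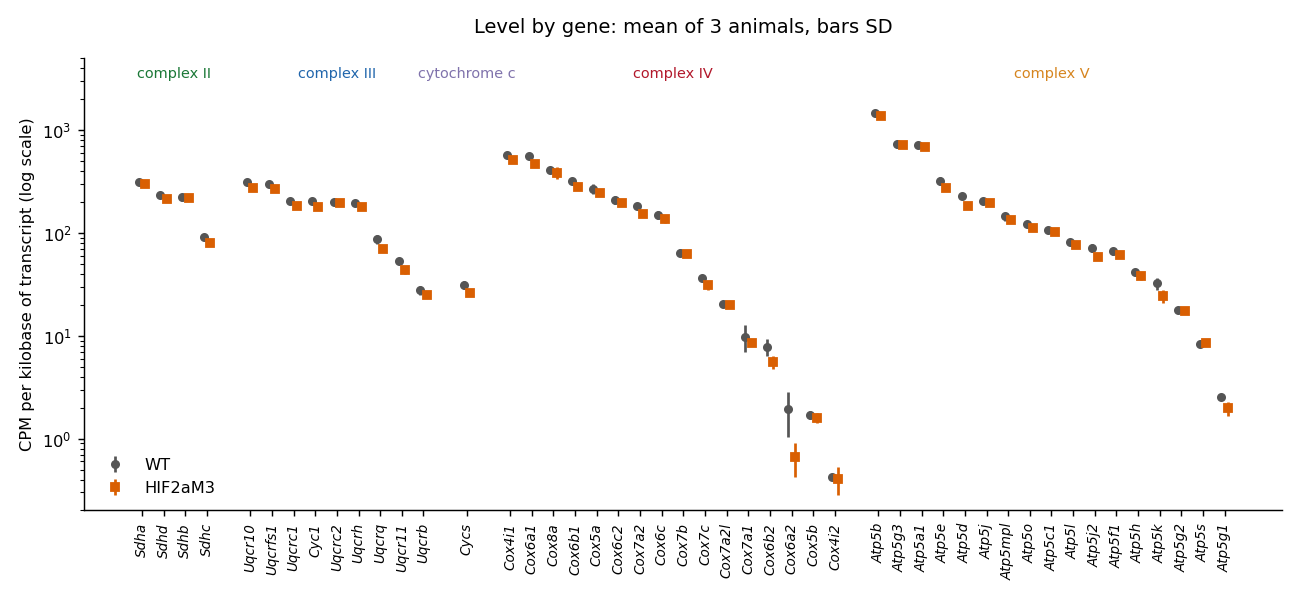
Mean CPM per kilobase of transcript on a log scale (vertical axis) in WT (grey circles) and HIF2aM3 (orange squares), bars SD over 3 animals, for all genes but Cox7b2 and Cox8b. Levels span from 0.419 for Cox4i2 to 1457 for Atp5b in WT, and the genotype difference is small beside that range.

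Several rows shared sequence with copies elsewhere in the genome, which limits how their reads could be assigned. Cox5b, a subunit of every complex IV, held only 1.47 ± 0.129 CPM in WT, while its copy Gm11273 held 41.2 ± 3.93 CPM. The copy stood at 37.2 ± 2.13 CPM in HIF2aM3 animals, and with both rows summed the difference was -0.15 ± 0.08 (edgeR adjusted p = 0.291). Atp5h held 28.6 ± 0.696 CPM and its copy Gm10250 41.1 ± 2.35 CPM in WT. Atp5g2 had 2 copies at 12.1 ± 0.103 and 11.8 ± 0.694 CPM beside its own 13.5 ± 0.764 CPM, and with these rows summed its difference was -0.10 in place of -0.04. For Atp5l, summed with 3 pseudogene rows matched to it by name, it was -0.06 in place of -0.10. Cox6c2 shared 52.7% of its words, chiefly with Cox6c. Reads of these genes and their copies cannot be told apart with certainty, so their levels are uncertain. Over the 21 tested genes with under 1% of their words shared, the median log2 fold change was -0.19. Of these, 20 were below 0 and 12 had every HIF2aM3 animal below every WT animal, against 49.1% and 16.5% of all tested genes.

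Exons of Uqcrb, Uqcrc2, Cox4i1, Cox5a, Cox6a2, Cox6c, Atp5a1, Atp5d, Atp5f1, Atp5j, Atp5l and Atp5o overlap a gene on the opposite strand, so that reads of both may be mixed. The same holds for Mb, Ckm, Sdhaf1, Coa3, Esrra, Pprc1, Tomm40, Ndufa4l2, Avpr2, Umod and Csf1r among the other genes named here. Atp5j overlaps Gabpa, which encodes a subunit of the ETS factor GABP. Gabpa was at 59.8, 57.4 and 59.4 CPM in WT and 67.3, 67.0 and 66.2 CPM in HIF2aM3 animals, above WT in all 3 (0.18 ± 0.05, edgeR adjusted p = 0.0656).

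The assembly factors of the 4 complexes lay mostly below 0, and 0 were called by edgeR, against 3.75% of all tested genes. The median log2 fold change was -0.12 over 4 factors of complex II, -0.15 over 6 of complex III, -0.16 over 22 factors and added subunits of complex IV and -0.14 over 7 of complex V (a list that includes Atp5mpl). Below 0 were 4, 6, 20 and 6 of them, against 49.1% of all tested genes. The exceptions were Coa5 (0.0019), Cmc1 (0.04) and Atpaf1 (0.10). The smallest p of each list belonged to Sdhaf1 (-0.22 ± 0.06, edgeR adjusted p = 0.0895), which helps insert iron-sulphur clusters into Sdhb, Uqcc3 (-0.26 ± 0.06, 0.0643), Coa3 (-0.28 ± 0.06, 0.0550), which stabilises the nascent core subunit of complex IV, and Fmc1 (-0.28 ± 0.10, 0.134). Ndufa4, now counted as a complex IV subunit, was at 157 ± 10.8 CPM in WT and 153 ± 3.52 CPM in HIF2aM3 animals (-0.04 ± 0.06, edgeR adjusted p = 0.732).

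Of 14 regulators of mitochondrial biogenesis, 2 fell, 0 rose and 12 did not pass, against 1.82% of all tested genes called lower. Esrra, the oestrogen-related receptor alpha that drives many respiratory genes, was at 149.8, 148 and 151 CPM in WT and 117, 120.2 and 119 CPM in HIF2aM3 animals. It fell by 0.34 on the log2 scale (SE 0.05, edgeR adjusted p = 0.0211), and the spread within each genotype was small beside that. Its exons overlap Trmt112 on the opposite strand. Pprc1, a coactivator of the PGC-1 family, fell by 0.44 (SE 0.09, edgeR adjusted p = 0.0428), from 21.1 ± 1.09 to 15.4 ± 1.63 CPM. Ppargc1a (PGC-1 alpha) stood at 0.06 ± 0.05, Nrf1 at -0.14 ± 0.06 and Tfam, which packages and transcribes mitochondrial DNA, at -0.01 ± 0.06, with edgeR adjusted p-values of 0.515, 0.216 and 0.943. Of 15 genes of the outer membrane, import and carriers, 2 fell, against 1.82% of all tested genes, and 13 did not pass. Their median was -0.12. Tomm40, the import pore of the outer membrane, fell by 0.26 (SE 0.05, edgeR adjusted p = 0.0412) and Timm50, an import receptor of the inner membrane, by 0.25 (SE 0.05, edgeR adjusted p = 0.0467).

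Of 8 regulators that link hypoxia to the respiratory chain, Bnip3l rose and 7 did not pass. Over all tested genes 3.75% were called in either direction. Bnip3l, a receptor for the removal of mitochondria by autophagy, was at 62.8, 58.2 and 65.0 CPM in WT and 88.7, 86.0 and 82.8 CPM in HIF2aM3 animals (0.47 ± 0.06, edgeR adjusted p = 0.0167). Lonp1, a mitochondrial protease known to degrade Cox4i1 in hypoxia, stood at -0.06 ± 0.05. Ndufa4l2, a hypoxia-inducible relative of Ndufa4, was at 2.73 ± 0.619 CPM in WT and 4.44 ± 1.07 CPM in HIF2aM3 animals (0.69 ± 0.23, edgeR adjusted p = 0.123), and its groups overlapped. Epas1, the gene of HIF2α, was at 197, 238 and 177 CPM in WT and 278, 276 and 248 CPM in HIF2aM3 animals (0.39 ± 0.11, edgeR adjusted p = 0.0881).

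**Figure D5:**
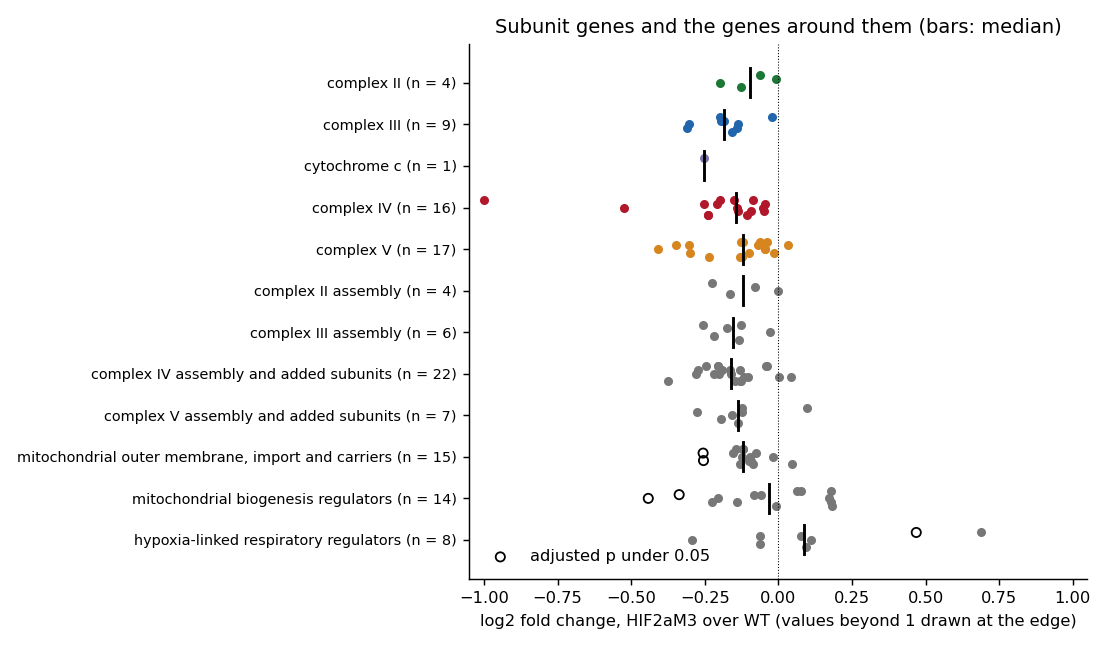
Log2 fold change of HIF2aM3 over WT (horizontal axis) for each tested gene of the complexes and of 7 related lists, bars the median. Open circles passed the adjusted threshold (2 import genes, 2 biogenesis regulators and Bnip3l); Cox6a2 is drawn at the edge.

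The 35 tested complex I subunit genes had a median log2 fold change of -0.18. All 35 were below 0, against 49.1% of all tested genes, and 4 were called, against 3.75%. In 24 of the 35 every HIF2aM3 animal was below every WT animal, against 16.5% of all tested genes. The genes share the same 6 animals. The 7 tested protein genes of the mitochondrial genome, mt-Cytb of complex III, mt-Co1 of complex IV and the others of complex I, had a median of -0.0030, ranging from -0.16 to 0.06, with 0 called.

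Some markers of the collecting duct, endothelium and leukocytes moved with the genotype, and their part in the result was not tested. Of 11 collecting duct markers 4 fell, against 1.82% of all tested genes called lower, and 0 rose. Below 0 were 10, against 49.1% of all tested genes. Their summed level was 768 to 804 CPM in WT and 522 to 654 CPM in HIF2aM3 animals. Scnn1a, a subunit of the epithelial sodium channel, fell by 0.81 (SE 0.10, edgeR adjusted p = 0.0143), and Foxi1, the factor of intercalated cells, by 1.01 (SE 0.19, edgeR adjusted p = 0.0432). Avpr2, the vasopressin receptor, fell by 0.31 (SE 0.06, edgeR adjusted p = 0.0431). The 8 markers of the thick ascending limb and distal tubule summed to 3907 to 4946 CPM in WT and 3468 to 3774 CPM in HIF2aM3 animals, with a median of -0.29 and 0 called by edgeR. Umod, the thick limb protein uromodulin, had the smallest p (-0.52 ± 0.11, edgeR adjusted p = 0.0512). Cells of the thick ascending limb and distal tubule are known to be rich in mitochondria. The 12 proximal tubule markers, the defining genes of the sampled tissue, were all detected and summed to 29395 to 35307 CPM in WT and 30866 to 34735 CPM in HIF2aM3 animals, with a median of -0.01. Of these, 1 rose and 1 fell, against 3.75% of all tested genes called in either direction. The lactate carrier Slc5a12 rose (0.49 ± 0.10) and the organic anion carrier Slc22a6 fell by 0.50 (SE 0.11), both at an edgeR adjusted p of 0.0483. Endothelial markers summed to 336 to 504 CPM in WT and 522 to 533 CPM in HIF2aM3 animals. Of these 7 markers 2 rose, against 3.75% of all tested genes called in either direction, and 0 were below 0, against 49.1%. Kdr, a VEGF receptor, rose by 0.70 (SE 0.12, edgeR adjusted p = 0.0302) and the endothelial surface protein Emcn by 0.57 (SE 0.12, edgeR adjusted p = 0.0458). Leukocyte markers summed to 72.8 to 143 CPM and 129 to 167 CPM. Of 8 tested, 1 rose and 0 fell, against 3.75% of all tested genes called in either direction. The 1 was Csf1r, the macrophage growth factor receptor, which rose by 0.58 (SE 0.10, edgeR adjusted p = 0.0349). Cd68, Itgam, Lyz2 and C1qa stood at 0.29, 0.03, 0.40 and 0.08 and did not pass (edgeR adjusted p of 0.599, 0.959, 0.697 and 0.899). Fibroblast and smooth muscle markers summed to 147 to 223 CPM and 232 to 315 CPM, with 0 of 7 called by edgeR and the smallest p at Pdgfrb (0.51 ± 0.14, adjusted p = 0.0832). Brown fat markers were near 0: Ucp1 was at most 0.0527 CPM, Cidea was at 0.268 ± 0.0436 CPM in WT and 0.107 ± 0.0320 CPM in HIF2aM3 animals, and Adipoq reached 1.21 CPM in WT 1 and at most 0.0300 CPM elsewhere.

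Between the 2 kidneys of an animal, in a fit that blocked by animal, 0 of 47 genes were called by edgeR between kidney 2 and kidney 1, against 0.0893% of 19034 tested genes, and 1 of 47 (Uqcr10) had an unadjusted p under 0.05. The log2 difference, kidney 2 over kidney 1, ran from -0.13 to 0.08 with a median of -0.04. The kidneys lay furthest apart in 17-56, where the median log2 ratio of the genes to WT was -0.14 in kidney 1 and -0.27 in kidney 2. A term for kidney by genotype called 0 of 19034 genes by edgeR (588 at an unadjusted p under 0.05), and 0 of the 47 had an unadjusted p under 0.05.

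Library totals ran from 24032148 to 43499743 counts in 11 libraries, and kidney 2 of 17-51 held 4161829. Without that library 0 of 47 genes were called, 46 were below 0 and the median was -0.14. Kidney 2 of 17-56 was the lowest library for these genes, its median log2 ratio to WT being -0.27 over the 46 genes with reads in every library, against -0.15 to -0.09 in the other HIF2aM3 libraries and -0.07 to 0.10 in WT. Without it 0 of 47 were called, 45 were below 0 and the median was -0.12. No overlap between genotypes was found in 24 genes. With it the count was 26, against 16.5% of all tested genes.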

How the data were processed

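The deposited table gives raw read counts per gene and library, per the file headers, and RPKM made by the authors from the same reads. The reads were aligned to mm9, per the submitters' processing notes, and no source used here names the aligner, the counter or the strand setting. Symbols, transcript lengths and overlaps came from GENCODE M21 (24630 rows matched), on another build. Both kidneys of an animal were added up and the sums fitted over the whole table with edgeR 4.0.16 (filterByExpr, TMM, robust quasi-likelihood, two-sided, adjusted p under 0.05), 3 animals against 3. SE was taken from the fold change and its F statistic. Kidneys were compared on the 12 libraries, blocking by animal. The fits were tested on simulated data. Alternatives used DESeq2 1.42.0 and limma 3.58.1 on RPKM, among others. SEs include the spread between animals. PCR reads without molecular identifiers are not independent molecules.

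Full values were given for genes past the threshold, the highest and lowest fold change in each complex, isoform sets, complex II, Cyc1 and Cycs, and up to 3 called genes per list or the smallest p. Others were named after their values were seen. The members and lists were chosen with earlier results of these data known. The alternatives with copies summed, GC content and length trends removed, subsets of genes, and without kidney 2 of 17-56 were added after the data were seen. One marker list, that of podocytes, is not reported here.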

Additional observations from a re-analysis of the deposited data

Results flagged for a closer look

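Over the 6 libraries of a genotype, 96 groups of values (the CPM of each of 47 genes and the median ratio over them, in WT and in HIF2aM3) were checked for a library far from the others. In 5 of them kidney 2 of HIF2aM3 17-56 stood apart on the low side, and no other library did. It was at 245 CPM for Sdhd (265 to 277 CPM in the other HIF2aM3 libraries), 53.9 CPM for Cox7b (63.3 to 65.8 CPM), 1685 CPM for Atp5a1 (1852 to 1940.0 CPM) and 473 CPM for Atp5g3 (522 to 548 CPM). The median log2 ratio of the genes to WT was -0.27 in it and -0.15 to -0.09 in the others. Chance flags about 1 in 20 such groups, and the genes share the library. The cause was not tested. The other kidney of this animal had a median log2 ratio of -0.14, below every WT library.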

How the results depend on the processing

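Of 935 values of single genes under 20 alternatives, 860 kept direction and side of the threshold, 42 passed the threshold in place of missing it and 33 changed sign, in 11 genes, which were Cox7a1, at -0.20 as reported, and others reported within 0.1 of 0. Under these alternatives 0 of the genes were called higher. The count called lower, 0 as reported, was 22 of 46 with the 12 libraries as replicates, against 26.6% of all genes called in either direction. With DESeq2 it was 10 of 47 (Sdhc, Cyc1, Uqcr11, Uqcrq, Cox6a1, Cox6a2, Cox7a2, Atp5d, Atp5j2 and Cycs), against 10.8% of 18903 genes. Without a count filter it was 2 (Atp5d and Atp5j2), against 3.66%. It was 1 with kidney 1 only (against 3.73%) and with library size alone (against 3.19%), Atp5j2 in both. With GC content and length trends removed it was 1 (Cycs), against 2.37%. Leaving out 1 animal gave 0 to 5, the 5 without WT 2, against 7.87% of all genes. Genes called over the whole table numbered 4829 with 12 libraries, 337 with kidney 2 only, 2038 with DESeq2, 140 and 114 with limma on RPKM plus 0.1 and plus 1, 434 with trends removed and 11 to 1549 without 1 animal, against 733.

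The median over all genes of the complexes ran from -0.19 to -0.10 without 1 animal. With trends removed it was -0.10 over all, -0.11 in complex III and -0.047 in complex V, and complex IV ran from -0.20 to -0.086 and complex V from -0.15 to -0.054 without 1 animal, the values nearest 0 without WT 3. Genes without overlap numbered 14 of 46 with the 12 libraries, which asks for 6 against 6. The share over all genes was not counted there. Among the 21 genes with few shared words 20 were below 0 and 12 had no overlap, against 49.1% and 16.5% of all tested genes. The causes were not tested.

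With trends removed the log2 fold change was 0.030 for Atp5a1, 0.11 for Atp5g2, 0.025 for Atp5g3, 0.048 for Atp5j, 0.066 for Cox4i2, 0.00034 for Cox7a2l, 0.020 for Cox8a and 0.10 for Sdhb. With kidney 1 only it was 0.018 for Atp5g3, 0.027 for Sdhb and 0.0062 for Uqcrc2, and with library size alone 0.0051 for Atp5g3 and 0.011 for Sdhb. With limma on RPKM plus 0.1 and plus 1 it was 0.0079 and 0.0076 for Atp5g2, 0.010 and 0.010 for Atp5g3, 0.015 and 0.0078 for Cox4i2, 0.026 and 0.026 for Sdhb, and 0.015 and 0.015 for Uqcrc2. Without kidney 2 of 17-56 Sdhb was at 0.012. Leaving out 1 animal in turn, the range was -0.083 to 0.039 for Atp5g3, -0.015 to 0.059 for Atp5s, -0.27 to 0.19 for Cox4i2, -0.33 to 0.069 for Cox7a1, -0.18 to 0.012 for Cox8a, -0.080 to 0.036 for Sdhb and -0.051 to 0.011 for Uqcrc2.

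Between kidneys, 0 genes were called without the animal block (188 at an unadjusted p under 0.05, edgeR) and 10 without animal 17-51, against 17, and 0 members each time. Hypoxia response letters stood in 57.5% of member promoters, against 35.1% of all promoters, in the shorter window (150 bases before to 50 after the start). Depth limits Cox4i2, Cox6a2, Cox7b2 and Cox8b. Cox5b is limited by sequence shared with its copy Gm11273, which held 41.2 CPM in WT beside 1.47 CPM for Cox5b. In all others 3 animals a genotype are the limit.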
